A study of Mus musculus with 11 samples.

Results

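The 3p arms of 7 microRNA (miRNA) hairpins, miR-741, miR-743a, miR-743b, miR-871, miR-878, miR-880 and miR-881, were described in mouse embryonic stem (mES) cells with and without Trim71. They were chosen by name, as the rows of these hairpins ending in -3p, with the genotype differences of the same table already known, and they are 7 of the 592 miRNAs of the deposited table. The genotype difference of these miRNAs is therefore given as a description, with no p-value of its own and with calls counted only beside those of all miRNAs, and tests were kept for the difference between clones.

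The study asked how the absence of Trim71, an RNA-binding protein of the TRIM-NHL family, changes the miRNAs of mES cells. All cells were C57BL/6 male embryonic stem cells that carried a floxed Trim71 gene and, as the methods state, a Cre recombinase fused to a modified estrogen receptor and driven from the Rosa26 locus. Trim-/- cells were obtained by 500 nM 4-hydroxytamoxifen (4-OHT) for 2 days and at least 7 further days of culture according to the labels, whereas the methods give a lower dose and a shorter culture. The control cells, Trimfl/fl, received the solvent DMSO according to the methods, so that the deletion and exposure to 4-OHT cannot be told apart. Cells of both genotypes were grown with FCS and LIF and were sorted magnetically for SSEA-1, a surface antigen of undifferentiated mES cells. Libraries came from clone 1 (days 1, 5 and 6) and clone E3 (days 3 and 4), with 1 Trim-/- and 1 Trimfl/fl library on each of these days, and the labels do not say what a day is or whether the cultures were separate. The p-values below therefore measure only the spread between these libraries, which may be technical. Trim71 mRNA is not in a miRNA table, and its deletion was not checked in these libraries.

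miRNAs are cut from hairpin transcripts, first in the nucleus by Drosha and then in the cytoplasm by Dicer, which leaves a duplex of a 5p and a 3p arm. Usually the arms are not loaded equally into Argonaute proteins, and bases 2 to 8 of the loaded arm, the seed, pair with target mRNAs. The hairpins studied here belong to a large, rapidly evolving miRNA cluster on the mouse X chromosome, close to Fmr1, that is best known for its high expression in the testis. The miR-743a arm has been linked to the mRNA of the mitochondrial malate dehydrogenase Mdh2, and single functions of the other arms are not described here.

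The mature sequences are shown because they decide which of these miRNAs could share targets or reads. They were taken from RefSeq on GRCm38.p6, in which all 7 were found, and are written from 5′ to 3′ in the order of transcription, with the seed in capitals.
miR-871-3p: uGACUGGCaccauucuggauaau
miR-881-3p: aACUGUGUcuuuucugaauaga
miR-878-3p: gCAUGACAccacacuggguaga
miR-880-3p: uACUCCAUccucucugaguaga
miR-741-3p: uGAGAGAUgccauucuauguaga
miR-743b-3p: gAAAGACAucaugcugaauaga
miR-743a-3p: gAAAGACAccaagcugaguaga

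The members held 6 different seeds. Only miR-743a-3p and miR-743b-3p shared a seed, AAAGACA, and no other of the 1679 mouse mature miRNAs of the RefSeq table carried the seed of a member. From miR-743a-3p to miR-743b-3p the substitutions were C9U, A12U and G18A, counted from 1 at the 5′ end. With 86.4% identical bases this was the closest of the 21 pairs of members, whose median identity was 60.9% and whose lowest was 45.5%. Outside the seed the 3′ ends were alike. The letters UAGA ended 6 of the 7 members, all except miR-871-3p, compared with 3 of the 13 other miRNAs of the cluster in the table (7 of them 3p arms) and with 5 of 1645 remaining mouse mature miRNAs (0.304%). The 3 others, miR-465a-3p, miR-465b-3p and miR-465c-3p, are the same RNA. The longer ending CUGNNUAGA was read in 5 of 7 members and in 0 of these 1645. These letters were picked after the sequences had been read, were looked for only at the 3′ end of the RNA, and describe the sequence without naming a site.

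All 7 hairpins lie on the minus strand of the X chromosome within 33.7 kb, at chrX:66776757-66810504 of GRCm38.p6, and no other gene of the GENCODE annotation overlaps them. Mir871 lies most 5′ and Mir743, the hairpin of miR-743a, most 3′ in the direction of transcription, and Mir743b lies next to Mir743. The wider cluster has 19 hairpins over 62.4 kb, and 24 miRNAs of the table fall within it. These were the 7 members, 4 5p arms of the same hairpins and 13 arms of other hairpins. For miR-741, miR-880 and miR-881 the 5p arm has no row in the table, so that these hairpins were described by their 3p arm alone.

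The authors' values are normalized read counts, corrected for batch and raised to 1 where they were lower. The number of reads behind a library is unknown, and so no counting interval is given. In 591 of 592 miRNAs the same-day values of both genotypes added up to a constant total, to within 0.1%. This holds for pairs without a value raised to 1, and 106 miRNAs had at least 1 such raised value. A high value in a Trim-/- library thus comes with a low value in its same-day partner, both groups have the same SD unless a value was raised to 1, and levels cannot be compared between clones. For such mirrored values, groups that do not overlap are those with the same direction in all 5 pairs. A further Trimfl/fl library, of day 2 and clone E3, equalled the mean of the other Trimfl/fl libraries in 592 of 592 miRNAs and was left out. For this mean, values raised to 1 were set back to those before the floor, which the constant total gives. The summed values of a library ranged from 3751519 to 5551715 in Trim-/- and from 2742673 to 4332525 in Trimfl/fl cells, and are no depth. They differed most on day 5, when the log2 ratio of the Trim-/- to the Trimfl/fl total was 1.02. Day 5 was also the day on which miR-743a-3p, miR-743b-3p, miR-871-3p and miR-878-3p had their widest difference, and values with libraries divided by their totals are given beside the main ones for the members and the cluster.

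**Figure D1:**
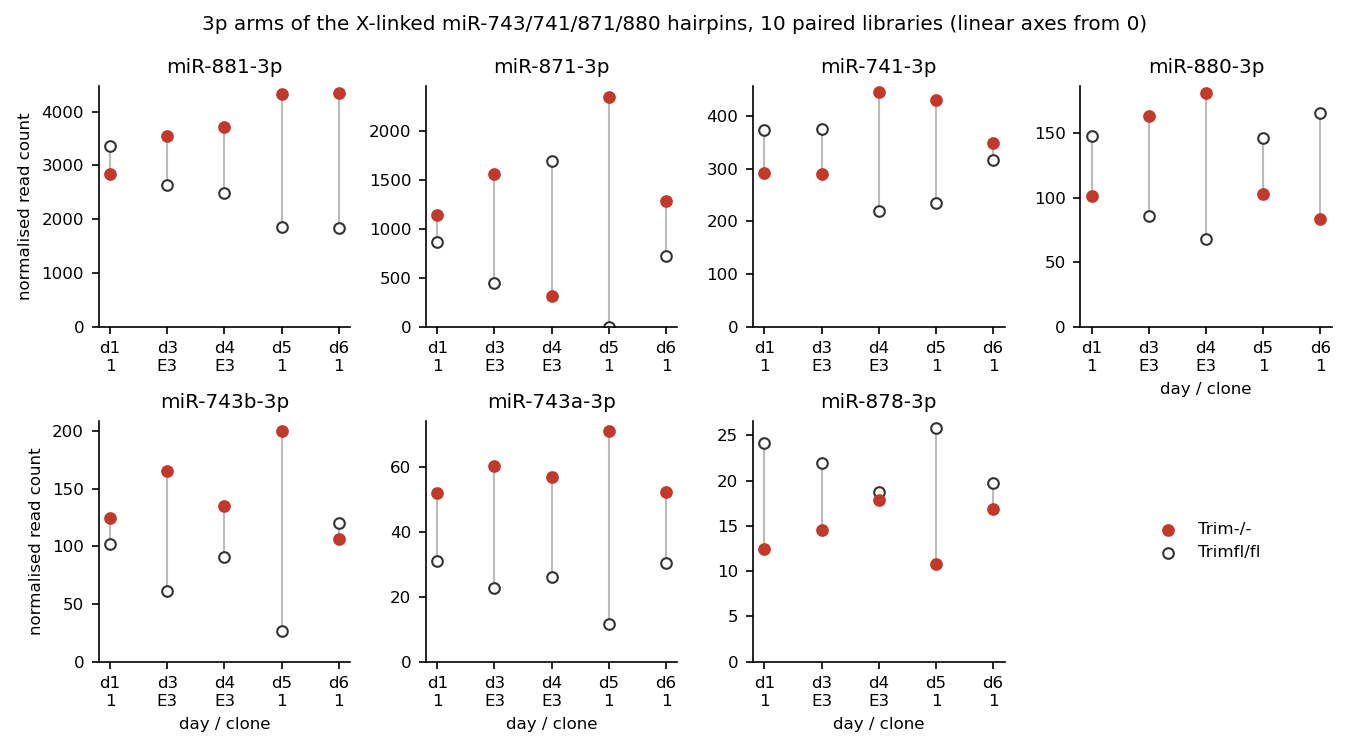
Normalized read count (linear axis from 0) of each 3p arm in the 10 paired libraries, by day and clone (d1 to d6, clone 1 or E3); filled red points are Trim-/- cells, open points Trimfl/fl cells, and a line joins a same-day pair. All 5 Trim-/- points of miR-743a-3p (51.8 to 71.1) lie above the Trimfl/fl points (11.6 to 30.9), and all 5 of miR-878-3p (10.7 to 17.9) lie below (18.7 to 25.9), the latter not once libraries are divided by their totals.

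Among the 3p arms, miR-743a-3p was higher in Trim-/- cells in every pair and miR-878-3p lower in every pair, whereas the others overlapped between the genotypes. The mean difference was positive for 6 of 7 members, with a median of 0.65 on the log2(value + 1) scale. Over all 592 miRNAs it was positive for 303, with a median of 0.03. After each library had been divided by its total, the median over all miRNAs shifted to -0.24 and that of the members to 0.38, and the directions of miR-741-3p and miR-880-3p turned. The members' median was negative on day 1 (-0.24) and positive on days 3 (0.92), 4 (0.58), 5 (1.22) and 6 (0.14). With libraries divided by their totals the daily medians were -0.45, 0.80, 0.79, 0.21 and -0.07, so that day 6 turned. Leaving out day 5 gave a median of 0.20 without this division.

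For miR-743a-3p, which shares its seed with miR-743b-3p, Trim-/- libraries had normalized read counts of 51.8, 60.1, 56.7, 71.1 and 52.3 on days 1, 3, 4, 5 and 6, and the Trimfl/fl libraries of the same days 30.9, 22.6, 25.96, 11.6 and 30.4. No Trimfl/fl value reached the lowest Trim-/- value, and the pair of day 5 was the widest apart. Means were 58.4 ± 7.87 (SD, n = 5) in Trim-/- and 24.3 ± 7.87 (SD, n = 5) in Trimfl/fl cells, a ratio of 2.40. The mean same-day difference was 1.29 on the log2 scale (SE 0.34), and it ranged from 0.99 to 1.44 when 1 pair was left out, the lowest being that without day 5. It was 1.33 in the 3 pairs of clone 1 and 1.23 in the 2 pairs of clone E3. After division by library totals it was 1.03, again positive on all days.

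miR-743b-3p carries the same seed, and its Trim-/- values were 124.1, 165, 135, 200 and 106 against 102, 60.9, 91.0, 26.2 and 120 in Trimfl/fl cells. It was higher in Trim-/- cells on 4 of 5 days, with day 6 in the opposite direction, and the groups overlapped. The mean values were 146 ± 37.0 (SD, n = 5) and 80.0 ± 37.0 (SD, n = 5), and the mean log2 difference was 1.00 (SE 0.49). Without the pair of day 5 this difference was 0.52, and it was 0.73 after division by library totals. Reads of miR-743a-3p and miR-743b-3p differ at 3 bases only, so that the division of reads between both rows depends on the authors' alignment.

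Of the 592 miRNAs, miR-743b-3p had the 5 same-day differences nearest to those of miR-743a-3p, at a root mean square distance of 0.55 on the log2 scale over the 5 days. The next were miR-187-3p (0.61) and miR-200b-5p (0.66), neither of which belongs to the cluster, and the median distance of all miRNAs was 1.74. For the median same-day differences of the members, the nearest miRNAs outside the members were miR-465d-3p (0.30), miR-878-5p (0.35) and miR-470-5p (0.37), all 3 of this cluster, with a median distance of 1.22 over all miRNAs.

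The most abundant member was miR-881-3p, which made up 53.9% to 80.6% of the members' sum in a library. Its Trim-/- values were 2833, 3545, 3710, 4335 and 4352, and its Trimfl/fl values 3357, 2645, 2480, 1855 and 1838. Trim-/- cells were lower on day 1 and higher on the other 4 days, and the ranges overlapped through day 1. The means were 3755 ± 630 (SD, n = 5) and 2435 ± 630 (SD, n = 5), a ratio of 1.54 and a mean log2 difference of 0.65 (SE 0.31). This difference lay between 0.50 and 0.87 when 1 pair was left out, and was 0.38 after division by library totals.

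miR-871-3p, the most 5′ of these hairpins, had the second highest mean and the widest spread. Its values were 1142, 1561, 314, 2347 and 1283 in Trim-/- cells and 867, 447, 1694, 1 and 725 in Trimfl/fl cells. The Trimfl/fl value of day 5 is the floor, and the constant total places it at about -339 before the floor. Day 4 went the opposite way, with a log2 difference of -2.43. The mean log2 difference of 2.16 (SE 1.74) was the largest among the members, but was 0.15 without the pair of day 5, and in the pairs of clone E3 it was -0.31. After division by library totals the mean was 1.94. The log2 difference of day 5 itself, 10.20, is set by the floor and cannot be read as a fold.

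The genotypes were close for miR-741-3p and miR-880-3p. miR-741-3p had values of 292.6, 289, 446, 430 and 349 in Trim-/- and 373, 376, 220, 235 and 317 in Trimfl/fl cells. Here Trim-/- cells were lower on days 1 and 3 and higher on days 4, 5 and 6, so that neither clone showed a common direction. The mean log2 difference was 0.26 (SE 0.32), and turned to -0.01 after division by library totals. For miR-880-3p, values of 101, 163, 181, 103 and 83.5 were measured in Trim-/- and of 148, 85.7, 68.3, 146 and 166 in Trimfl/fl cells. Group means were nearly equal, 126 ± 42.8 (SD, n = 5) and 123 ± 42.8 (SD, n = 5), while each pair differed, by -0.54, 0.92, 1.39, -0.50 and -0.98 on the log2 scale. The mean of these was 0.06 (SE 0.43), or -0.21 after division by library totals. Both pairs of clone E3 were higher in Trim-/- cells and all 3 pairs of clone 1 were lower.

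miR-878-3p was the least abundant member and the only one with a negative mean difference. Its Trim-/- values were 12.4, 14.6, 17.9, 10.7 and 16.8, compared with 24.2, 22.005, 18.7, 25.9 and 19.8 in Trimfl/fl cells. The groups did not overlap, although on day 4 they were only 0.07 apart on the log2 scale. Means were 14.5 ± 2.96 (SD, n = 5) and 22.1 ± 2.96 (SD, n = 5), with a mean log2 difference of -0.59 (SE 0.28), between -0.72 and -0.44 when 1 pair was left out. After division by library totals the mean was -0.84, and the day 4 pair turned to 0.13, so that the groups then overlapped.

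**Figure D2:**
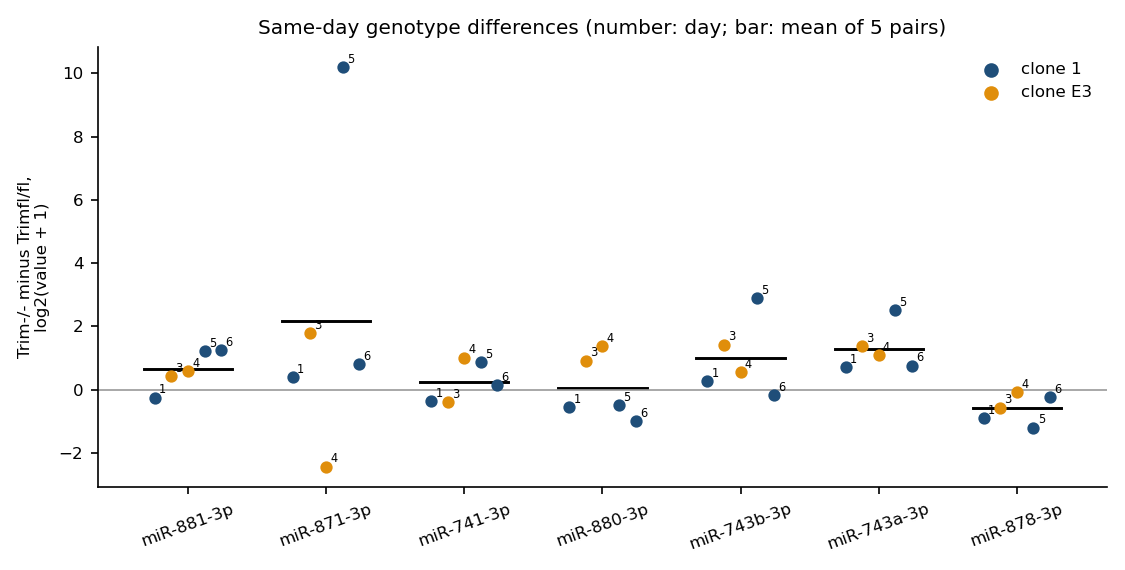
Trim-/- minus Trimfl/fl on the log2(value + 1) scale for each 3p arm, ordered by mean level; each point is a same-day pair with its day as a number, blue for clone 1 and orange for clone E3, and the black bar is the mean of 5 pairs. Day 5 gives the highest point of miR-743a-3p, miR-743b-3p and miR-871-3p, the last at 10.20 through the floor, and the clones part only for miR-880-3p.

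The study called a miRNA changed at a fold of more than 1.5 together with p below 0.05 before adjustment. By this rule, in a limma fit with day as a block, 1 of 7 members (miR-743a-3p) was higher in Trim-/- cells, where 0.845% of all 592 miRNAs were. None of the 7 was lower, where 4.56% of all were, and 0 members passed a Benjamini-Hochberg adjusted p of 0.05 in limma, as did 0% of all miRNAs. All Trim-/- values lay above all Trimfl/fl values in 1 member, against 5.24% of all miRNAs, and all lay below in 1 member (miR-878-3p), against 6.25%. Since the members were selected on this contrast, these counts are no test of it and nothing is read from them.

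The order of the mean levels over the 10 libraries was miR-881-3p (3095), miR-871-3p (1038), miR-741-3p (333), miR-880-3p (125), miR-743b-3p (113), miR-743a-3p (41.4) and miR-878-3p (18.3), on the scale of normalized read counts per mature miRNA. Neighbours in this order kept it in 10 of 10 libraries for miR-881-3p over miR-871-3p, for miR-741-3p over miR-880-3p and for miR-743b-3p over miR-743a-3p. The order of miR-871-3p over miR-741-3p was kept in 8 libraries and that of miR-743a-3p over miR-878-3p in 9. miR-880-3p was above miR-743b-3p in 5 of 10 libraries, 1 of them Trim-/- and 4 Trimfl/fl. With constant same-day totals, the miRNA with the larger total is above the other in at least 1 library of each day. With totals of 249 for miR-880-3p and 226 for miR-743b-3p, 5 of 10 was thus the lowest count possible, and no order is read from it. None of these counts rests on 10 independent libraries. The summed values of the members gave Trim-/- to Trimfl/fl ratios of 0.930, 1.58, 1.06, 3.26 and 1.94 on the 5 days in order, a sum made up mainly of miR-881-3p and miR-871-3p. With libraries divided by their totals these ratios were 0.806, 1.45, 1.22, 1.61 and 1.68.

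Whether the genotype difference varied between the clones was tested as the interaction of genotype and clone, over all 592 miRNAs. For 6 of the 7 members the clone difference (clone E3 minus clone 1) had an interval that included 0. It was -0.10 for miR-743a-3p (95% confidence interval -2.04 to 1.84), and the intervals of miR-743b-3p (-2.74 to 2.74) and miR-741-3p (-1.73 to 1.93) also reached beyond 1 log2 unit on both sides, so that a clone difference of that size in these members was not detectable with 5 pairs. miR-871-3p showed a clone difference of -4.12 that shrank to -0.92 when day 5 was omitted. In contrast, miR-880-3p differed by 1.83 (SE 0.54, 95% confidence interval 0.46 to 3.20), with a mean Trim-/- minus Trimfl/fl difference of 1.16 in clone E3 and of -0.67 in clone 1.

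This clone difference of miR-880-3p had an unadjusted p of 0.0180 in limma, and 5.57% of all miRNAs had an unadjusted p under 0.05. The Benjamini-Hochberg adjusted p was 0.627 in limma (0.338 to 0.975 over the alternatives), so that the difference did not pass the correction. Over these alternatives the value itself stayed between 1.22 and 2.34, the lowest being a difference of untransformed values divided by the mean. Omitting day 1, 4 or 6 raised the unadjusted limma p to 0.0523, 0.0648 or 0.0510, respectively. Opposite directions in all pairs of either clone were seen in this 1 member, against 8.11% of all miRNAs. Of the other miRNAs of the cluster, miR-465a-5p (2.52), miR-471-5p (1.96) and miR-743b-5p (-3.24) had a clone difference with an unadjusted p under 0.05, each at a limma adjusted p of 0.627.

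The arms of a hairpin come from the same transcript, and 4 hairpins had both arms in the table. Their sequences are shown because the dominant arm was not the same in all of them, with the seed of each 5p arm in capitals and the 3p arms as above.
miR-871-5p: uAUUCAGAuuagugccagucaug
miR-878-5p: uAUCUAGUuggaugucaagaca
miR-743b-5p: uGUUCAGAcugguguccauca
miR-743a-5p: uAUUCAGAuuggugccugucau

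Here miR-743a-5p and miR-871-5p shared the seed AUUCAGA, although their 3p arms did not share one. The 3p arm exceeded the 5p arm in 10 of 10 libraries for miR-743a and miR-743b and in 9 for miR-871, the exception being the floored value of day 5. In contrast, the 3p arm of miR-878 was below its 5p arm in all 10 libraries. With constant same-day totals, the arm with the larger total is above the other in at least 1 library of each pair. These counts are therefore not 10 separate observations. Mean values of miR-878-5p were 198.9 in Trim-/- and 159 in Trimfl/fl cells, against 14.5 and 22.1 for the 3p arm.

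The balance of the arms of miR-878 differed between the genotypes in every pair, a description that uses the 3p values already known to be lower. miR-878-5p had values of 176, 196, 195, 241 and 187 in Trim-/- cells and 182, 162, 162, 117 and 171 in Trimfl/fl cells, higher on 4 of 5 days, with a mean log2 difference of 0.33 (SE 0.27). After division by library totals it was 0.06 and higher on 3 of 5 days. The log2 ratio of the 3p to the 5p arm was -3.70 ± 0.40 (SD, n = 5) in Trim-/- and -2.79 ± 0.38 (SD, n = 5) in Trimfl/fl cells. It was lower in the Trim-/- library on all 5 days, as in 1.68% of the 179 hairpins with both arms in the table. The mean difference was -0.92 (SE 0.35, here taken from the SD of the 5 differences alone), and between -1.06 and -0.59 when 1 pair was left out. A ratio of arms within a library does not depend on its total, apart from the 1 added before the logarithm, and with 10 added the difference was -0.71. It does depend on the batch correction, which gave each arm its own constant same-day total. The ratio of the corrected values therefore need not be that of the reads, least of all for the low 3p arm.

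For the other hairpins the balance of the arms, with 1 added, did not go the same way on all days. The arm ratio of miR-743a was higher in Trim-/- cells on 3 of 5 days, by a mean of 0.57, and that of miR-743b on 3 days, by 0.52, a mean that turned to -0.30 when day 3 was omitted. For miR-871 the mean of 1.79 turned to -0.30 without day 5. The 5p arms of miR-743a and miR-743b were near the floor, with mean values over the 10 libraries of 8.22 and 8.57. With 10 added, the arm ratio was higher in Trim-/- cells on 5 of 5 days for miR-743a (mean 0.70) and on 4 of 5 for miR-743b (mean 0.68), so that the day counts of these hairpins depend on the added value.

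**Figure D3:**
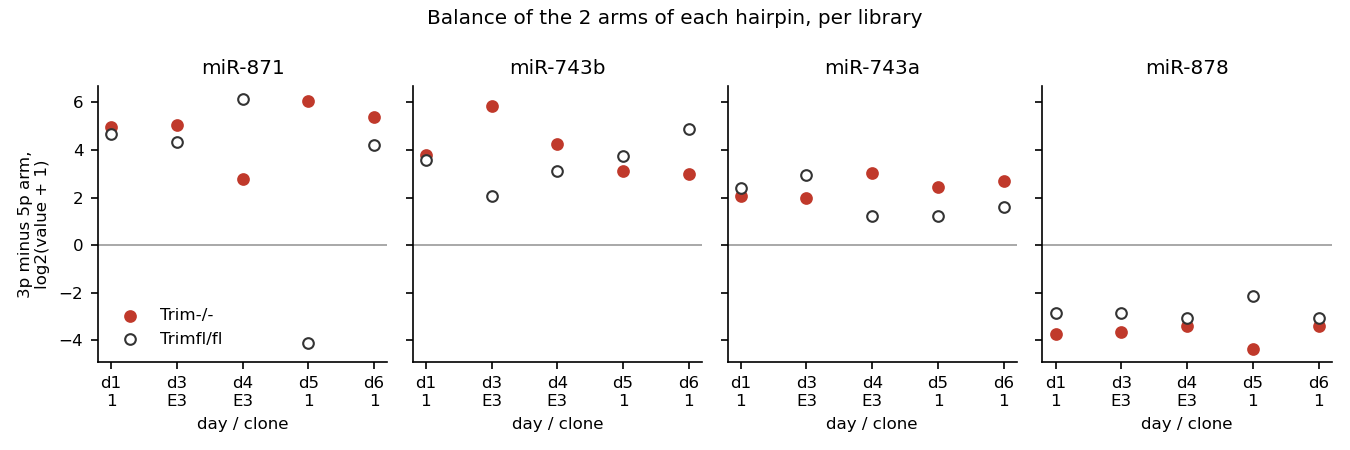
Log2 ratio of the 3p to the 5p arm (1 added to each value) in every paired library for the 4 hairpins with both arms in the table, by day and clone; filled red points are Trim-/- and open points Trimfl/fl cells, and the line at 0 marks equal arms. Only miR-878 lies below 0 in all libraries, and there each Trim-/- point (mean -3.70) is below its same-day partner (mean -2.79).

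Other miRNAs of the cluster were compared with the members to show where the members stood. The median of the mean log2 differences was 0.49 for the 13 arms of other hairpins (10 positive and 3 negative), 0.42 for the 4 5p arms (all positive) and 0.48 for all 24 miRNAs of the cluster, beside 0.65 for the members. With libraries divided by their totals these medians were 0.22, 0.19, 0.24 and 0.38, in the same order, and 18 of the 24 mean differences were positive in place of 20. None of the 13 and none of the 5p arms was past the thresholds of the study. miR-883a-3p, whose hairpin lies between those of miR-471 and miR-743b, was the only other miRNA of the cluster higher in Trim-/- cells on all 5 days, with a mean log2 difference of 0.60; after division by library totals this was 0.33 and positive on 3 days. Its Trim-/- values were 94.6, 96.0, 143, 102 and 107 and its Trimfl/fl values 87.2, 85.8, 39.1, 79.4 and 74.7, so that the gap was wide on day 4 alone. The largest negative difference among the 24 was that of miR-465a-5p (-0.70), which was lower on 4 of 5 days.

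**Figure D4:**
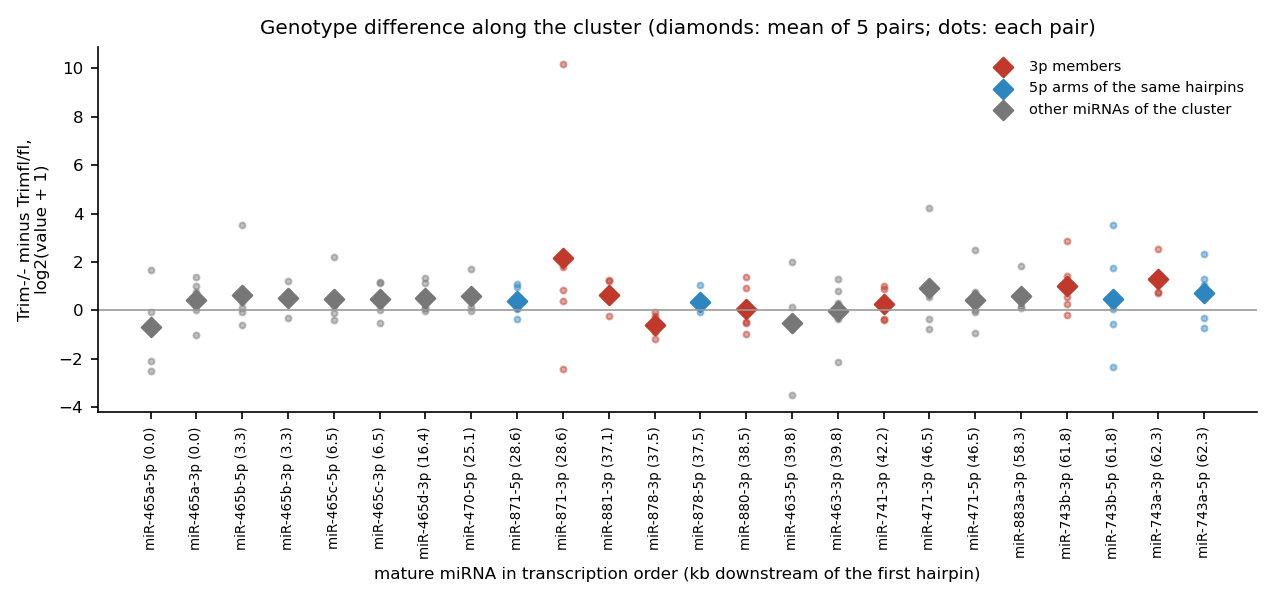
Trim-/- minus Trimfl/fl on the log2(value + 1) scale for the 24 miRNAs of the cluster in order of transcription, with the distance in kb from the 5′ end of the first hairpin in brackets (a miRNA with several copies stands at its most 5′ copy); diamonds are means of 5 pairs and dots single pairs, red for the 3p members, blue for their 5p arms and grey for the other hairpins. Diamonds above 0 (20 of 24, or 18 with libraries divided by their totals) are spread over the whole 62.4 kb, and miR-743a-3p stands at the 3′ end.

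Markers of other cells were listed by name to check the samples. ES cell miRNAs of the miR-290 to miR-295 and miR-302 clusters held 55.5% to 59.7% of the summed values in Trim-/- and 56.8% to 59.8% in Trimfl/fl libraries, a share higher in Trim-/- cells on 4 of 5 days. Fibroblast or mesenchymal miRNAs, 14 mature forms of 7 of 8 listed names (miR-214 has no row), held 7.47% to 15.5% and 1.43% to 9.58%, a share also higher on 4 of 5 days. The let-7 family, typical of differentiated cells, held 0.718% to 2.196% and 0.0207% to 0.993%, a share higher on 3 of 5 days, while its summed value was higher on 5 of 5. Neural (0.158% to 0.182% and 0.124% to 0.155%), blood (0.0218% to 0.0766% and 0.0538% to 0.146%) and germ line miRNAs (0.0421% to 0.0865% and 0.0274% to 0.0691%) held little, with a share higher in Trim-/- cells on 5, 1 and 2 of 5 days, respectively, and a summed value higher on 4, 1 and 3. Names without a row were miR-292a of the ES cell list, let-7k, miR-137 and miR-219b of the neural, miR-142a, miR-144 and miR-223 of the blood and miR-449b and miR-449c of the germ line list, so that these sums cover parts of the lists. No mature form with a row was at the floor in all libraries. The part of these lists in the differences of the 3p arms was not tested, and fewer cells of a type cannot be told apart from less miRNA per cell in bulk RNA.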

How the data were processed

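Small RNA of 11 libraries was sequenced. The methods describe a small RNA kit, whereas the labels name an mRNA kit. Per the submitters' processing notes, CASAVA 1.8, Bowtie2 2.2.1, Partek 6.6, DESeq2 and mm10 were used. Deposited was a signal in units of read counts, which the authors normalized with DESeq2, corrected for batch, raised to 1 and filtered on low group means. Depth is unknown.

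From these values, same-day differences of log2(value + 1) were taken in 10 libraries. The labels pair the genotypes by day and clone. limma 3.58.1 (R 4.3.3) was fitted on all 592 miRNAs with genotype and day as factors, and for clones with their interaction, with Benjamini-Hochberg adjustment. The fit was tested on simulated data. Adding 1 understates differences of low values. The miRNAs named were the members, the other miRNAs of the cluster, the 3 nearest patterns and marker lists. Members, lists and tests were chosen with earlier results of these data known. Sequences were matched by name to RefSeq (463 of 592 miRNAs). The alternatives were other blocks, scalings, pseudocounts (0.1 and 10), floors and filters, each clone alone and each pair left out.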

Additional observations from a re-analysis of the deposited data

Results flagged for a closer look

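The genotype difference of miR-880-3p differed between the clones by 1.83 on the log2 scale (clone E3 minus clone 1), and this contrast was tested as an interaction in limma. It was positive in both pairs of clone E3 (0.92 and 1.39) and negative in all 3 pairs of clone 1 (-0.54, -0.50 and -0.98). With Benjamini-Hochberg adjustment over all 592 miRNAs the limma adjusted p was 0.627, between 0.338 and 0.975 over the alternatives, so that the difference does not pass the correction. A cause was not tested. No library stood apart from its group by Dixon's criterion in any of the 14 groups of member values. Because same-day values mirror each other, both groups of a member give the same check unless a value was raised to 1. The 14 groups are therefore not separate checks, and they were examined after batch correction.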

How the results depend on the processing

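Without the replicate block, so that same-day libraries were not paired, 42 miRNAs were higher and 59 lower in Trim-/- cells past the thresholds, in place of 5 and 27. The counts were 36 and 57 with clone in place of day, 45 and 71 with all 11 libraries, and 2 and 48 with libraries divided by their totals. Leaving out the block in the 10 paired libraries kept the differences and lowered the SE, from 0.28 to 0.17 for miR-878-3p. Day effects had already been removed, so that fits without the block count mirrored libraries as independent and their p-values are too low. The fit on 11 libraries also counts the day 2 library, a mean of the other Trimfl/fl libraries. Other counts of higher miRNAs were 9 with libraries divided by their medians, 8 with a pseudocount of 10, 9 on untransformed values, with or without the floor, and 10 among miRNAs without a floored value. Clone 1 alone gave 14 higher and 45 lower, and clone E3 alone 8 higher. Among miRNAs with a mean of at least 100, 10 were lower and 20, in place of 33, differed between clones at an unadjusted p under 0.05. When 1 pair was left out, higher miRNAs ranged from 4 to 23, with 23 without day 4 and 8 without day 5, and lower ones from 11 to 44, with 11 without day 1, 15 without day 6 and 44 without day 4. Clone differences ranged from 11 (without day 4) to 74 (without day 3). The miRNAs whose groups did not overlap were 31 higher and 37 lower, or 5 and 65 with libraries divided by their totals. They ranged from 45 to 95 higher and from 46 to 103 lower when 1 pair was left out, and fewer pairs can only raise these counts. Both were highest without day 4, which the number of pairs does not account for, as it was the same whichever pair was left out. The median difference of the arm ratios, 0.54 over the 4 hairpins, ranged from 0.054 (without day 5) to 0.79 (without day 6). Of the members, miR-743a-3p, miR-743b-3p, miR-878-3p and miR-881-3p kept the direction of their genotype difference under every alternative that included them. The filter on a mean of at least 100 left out miR-743a-3p and miR-878-3p. miR-741-3p turned to -0.01 and miR-880-3p to -0.21 with libraries divided by their totals, miR-871-3p turned to -0.31 in clone E3 alone, and miR-880-3p turned to -0.67 in clone 1 alone, -0.16 without day 3 and -0.27 without day 4, and was 1.16 in clone E3 alone. The thresholds, passed by miR-743a-3p in the paired fit, were not passed by it in either clone alone. They were also passed by miR-881-3p (higher) without day 1 and by miR-878-3p (lower) without day 4. In each of the fits without the block miR-743b-3p and miR-881-3p (higher) and miR-878-3p (lower) passed them too. As those p-values are too low, nothing is read from these passes. Apart from the fits without the block, the causes of these shifts were not tested. The number of reads is unknown, so that no limit from depth can be given, and the precision rests on 5 pairs.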

Other observations

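The miR-465 rows of this cluster gave a measure of how far rows of the table can differ without a difference in sequence. In RefSeq the mature miR-465a-3p, miR-465b-3p and miR-465c-3p are the same RNA, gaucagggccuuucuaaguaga, but the table holds a value for each. On the same day their Trim-/- minus Trimfl/fl differences spanned between 0.52 (day 5) and 1.23 (day 6) on the log2 scale. On day 6, miR-465b-3p had values of 39.3 in Trim-/- and 16.2 in Trimfl/fl cells, whereas miR-465a-3p had 27.9 and 27.8. The mean differences over 5 days were 0.43, 0.52 and 0.46. Their levels, with means of 27.9, 27.7 and 25.8 over the 10 libraries, lay between those of miR-743a-3p and miR-878-3p. The methods state an alignment with Bowtie2 at its default settings, and how reads that fit several rows were then counted was not tested.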
